A study of Mus musculus with 18 samples.

Results

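Semaphorins and plexins were followed in 18 samples of cultured mouse aorta. Every sample pooled 3 aortas of male wild-type C57Bl/6 mice. The 6 groups, with 3 pools each, were aldosterone at 100 nM for 2 h, 4 h and 8 h and vehicle for 2 h, 4 h and 8 h. All the mice, those of the vehicle groups included, had received spironolactone, a blocker of the mineralocorticoid receptor, at 20 mg/kg/day for 5 days from a pellet under the skin, so no group shows untreated aorta. RNA was measured on 1-colour Affymetrix arrays, and values are the deposited log2 expression estimates. Replicates are called biological in the labels and differ in animals, culture and array. The mice's age is not given in the sources used here.

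The genes described are 5 secreted or cell-surface cues that passed the filter on low values (Sema3a, Sema3c, Sema3f, Sema5a and Sema7a), 3 receptors that passed it (Plxna2, Plxnb2 and Plxnd1), and Sema6a and Plxnc1, which did not. They were chosen by name from both families with earlier results of these samples in view, and the measure that selected these 10 among the 12394 genes with a probe set of their own is not stated. The p-values below therefore describe the fit and are no independent support for the genes. To pass the filter, a probe set had to exceed a log2 value of 4 in 3 samples or more. Of 19 probe sets of the 10 genes, 10 passed, and they stood for 8 genes among the 7093 genes tested. Where a gene had several such probe sets, the one with the highest mean represented it. A gene that passed only because it was high in 1 group had to differ between groups, so counts over the 8 measured genes describe those genes and no others.

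Semaphorins are guidance cues that share an extracellular sema domain. They were described first for steering axons and are now known for shaping vessels, immune responses and cell contacts as well. Those of class 3 are secreted and mostly bind a neuropilin, which has no signalling domain of its own and works together with a plexin. Other classes are anchored in the membrane and mostly bind plexins directly. Plexins carry a GTPase-activating domain that acts on small GTPases of the Ras and Rap type and, also through collapsin response mediator proteins, changes the cytoskeleton and adhesion. In the artery wall, smooth muscle, endothelium, fibroblasts and nerve endings can all make or receive these cues. Aldosterone acts mainly through the mineralocorticoid receptor, a steroid receptor that binds DNA as a pair.

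Aldosterone acts mainly through a receptor that binds DNA, whose part in these results was not tested. For the 3 genes whose aldosterone and vehicle samples did not overlap at 8 h, the 300 bases around the start are shown. They run 5′ to 3′ from 250 bases before the RefSeq start to 50 bases after it, on GRCm38.p6, and capitals mark matches to any of the motifs searched on both strands. Plxna2 is at chr1:194619579-194619878 on the plus strand, Sema5a at chr15:32244563-32244862 on the plus strand and Sema3a at chr5:13396534-13396833 on the plus strand.
Plxna2: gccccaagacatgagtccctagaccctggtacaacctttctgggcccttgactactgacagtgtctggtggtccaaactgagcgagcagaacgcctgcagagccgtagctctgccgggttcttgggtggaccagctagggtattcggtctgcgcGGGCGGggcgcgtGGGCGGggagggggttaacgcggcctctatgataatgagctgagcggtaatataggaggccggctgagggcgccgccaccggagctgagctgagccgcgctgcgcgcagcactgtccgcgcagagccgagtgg
Sema5a: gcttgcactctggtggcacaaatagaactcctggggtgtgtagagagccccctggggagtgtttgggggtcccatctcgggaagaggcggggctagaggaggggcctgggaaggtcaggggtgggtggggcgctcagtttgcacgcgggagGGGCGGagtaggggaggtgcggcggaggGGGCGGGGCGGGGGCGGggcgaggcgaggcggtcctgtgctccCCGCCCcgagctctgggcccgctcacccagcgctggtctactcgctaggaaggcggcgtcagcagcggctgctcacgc
Sema3a: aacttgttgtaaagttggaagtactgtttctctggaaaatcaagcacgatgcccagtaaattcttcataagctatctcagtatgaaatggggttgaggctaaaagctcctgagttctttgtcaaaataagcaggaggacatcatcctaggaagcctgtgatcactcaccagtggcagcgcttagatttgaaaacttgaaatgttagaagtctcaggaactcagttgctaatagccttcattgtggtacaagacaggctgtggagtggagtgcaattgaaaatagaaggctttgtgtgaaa
All the capitals are GC boxes, GGGCGG or CCGCCC, which are bound by Sp-family factors. There are 2 in the Plxna2 window and 5 in that of Sema5a, where some share letters. The Sema3a window holds no match to any motif searched.

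The windows of Plxna2 and Sema5a are rich in G and C (64.7% and 71.3%) and hold 25 and 23 CpG dinucleotides, whereas the Sema3a window is 41.3% G and C with 2 CpG. The median over 32851 RefSeq windows of this length is 52.7% and 7 CpG. Of the 10 genes, 8 have a window in the table and Plxnb2 has a pair of them. The half-site of steroid receptors, TGTTCT or AGAACA, occurs in 19.0% of all windows, and among these genes only in the Plxnd1 window. The full element, AGAACA and TGTTCT 3 bases apart, was found in 3 of all windows (0.00913%) and in none of these genes. The other motifs were the AP-1 site TGANTCA, found in 7.81% of all windows, the cAMP response element TGACGTCA in 1.79%, the E-box CACGTG in 7.15%, the GC box in 35.7% and the TATA box TATAAA in 13.6%. A match describes letters in this window only, and no peak or occupancy data were used here.

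The label of the tissue was set against marker genes of the cell types an aorta can hold. All 8 smooth muscle markers were measured, led by Acta2 and Tagln with mean log2 values of 14.51 and 13.88, and 7 of 8 endothelial markers were measured, Tie1 being below the filter. All 6 fibroblast and all 8 macrophage markers passed, though the mean of the macrophage marker Cd68 was only 3.66. Of 8 adipocyte markers, 6 had a probe set of their own and 5 passed, Lep being below the filter. The lymphocyte list had 6 of 8 with a probe set and 1 past the filter (Cd3e, Cd3g, Cd4, Cd79a and Cd8a below). The Schwann cell and nerve list had 4 of 7 with a probe set and 1 past the filter (Gfap, Mbp and Sox10 below). The sample of vehicle at 2 h called replicate 1 stands apart: its median log2 value over all probe sets is 4.42, against 4.01 to 4.09 in the other 17 samples, and 908 genes differ by more than 1 on the log2 scale from the mean of its group mates. Where leaving it out changes a call of a named gene, moves its called value by over 1.5 times or changes a count of calls over these families and their pathway, the value without it is given too. Only the probe set representing each gene was refitted without it. The arrays measure RNA of whole tissue, in which fewer cells of a type and less RNA per cell cannot be told apart.

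After 8 h of aldosterone, the receptor gene Plxna2 was at 2.48-fold and the cue gene Sema5a at 0.582-fold its level in vehicle, and these were the 2 of 8 measured genes past the threshold, an adjusted p of 0.05 in limma's moderated test with Benjamini-Hochberg adjustment over the 7093 genes. Of all genes tested, 71 passed in the same comparison (1.0%), 61 higher and 10 lower, and 111 (1.56%) did without vehicle 2 h replicate 1. At 4 h no measured semaphorin or plexin passed and 2 had an unadjusted p under 0.05, with 17 of all genes past (0.24%) and 267 at the unadjusted level. Without vehicle 2 h replicate 1 the unadjusted count at 4 h was 3, beside 482 of all genes. The 2 h comparison likewise held none past and 1 at the unadjusted level, with 5 of all genes past (0.0705%) and 782 at the unadjusted level. The median log2 difference over the 8 genes was -0.03 at 2 h, 0.03 at 4 h and -0.06 at 8 h, beside -0.07, 0.01 and 0.01 over all genes. The 2 h median rests on vehicle 2 h replicate 1: without that sample it was 0.24, beside 0.04 over all genes, with single genes from -0.23 to 0.44 and still none past the threshold.

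**Figure D1:**
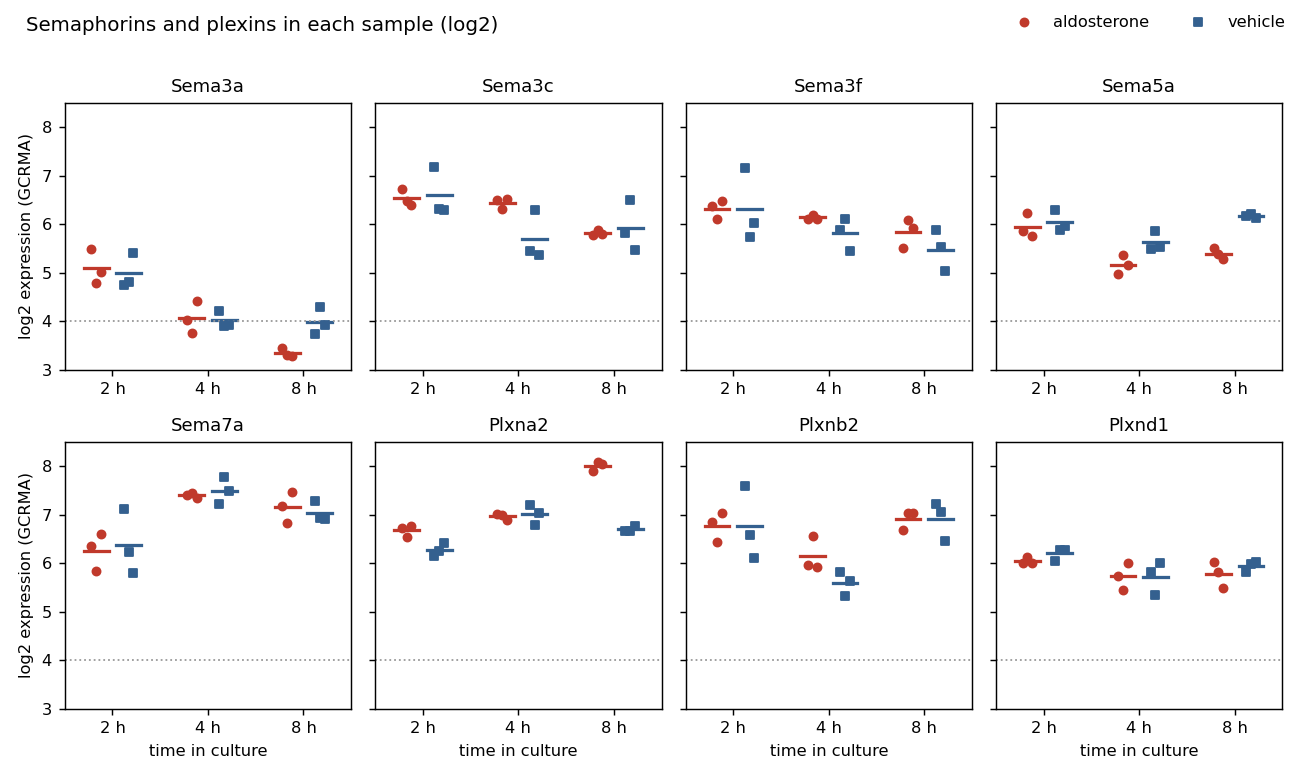
Log2 expression of the 8 measured semaphorin and plexin genes in each of 18 samples by time in culture, with aldosterone as red circles left of vehicle as blue squares, short lines at group means and the dotted line at the filter level of 4. Plxna2 at 8 h is the widest separation, with aldosterone samples between 7.89 and 8.09 and vehicle samples between 6.66 and 6.77.

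Among the receptors, Plxna2 encodes plexin A2, which pairs with neuropilins to receive class 3 semaphorins and binds Sema6a directly, and which marks cardiac neural crest in mouse embryos. Its log2 values at 2 h were 6.73, 6.55 and 6.78 with aldosterone and 6.15, 6.25 and 6.42 with vehicle. They were 7.02, 7.00 and 6.89 with aldosterone and 7.20, 6.79 and 7.04 with vehicle at 4 h. At 8 h they were 7.89, 8.09 and 8.05 with aldosterone and 6.67, 6.66 and 6.77 with vehicle. Aldosterone samples were all above vehicle samples at 2 h and at 8 h, and the groups overlapped at 4 h. Across the 6 groups, aldosterone at 8 h was highest (mean 8.01), aldosterone and vehicle at 4 h came next (6.97 and 7.01, overlapping), then vehicle at 8 h and aldosterone at 2 h (6.70 and 6.68, overlapping), and vehicle at 2 h was lowest (6.27).

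The Plxna2 difference at 8 h was 1.31 ± 0.14 on the log2 scale (SE, n = 3 each, adjusted p = 2.17e-05). It was 0.41 ± 0.14 at 2 h (adjusted p = 0.281) and -0.04 ± 0.14 at 4 h (adjusted p = 1). Averaged over the 3 times it was 0.56 ± 0.08 (adjusted p = 0.000572), one of 2 measured genes past the threshold there beside 78 of all genes (1.1%). The hormone's effect on Plxna2 itself differed between times (moderated F test in limma, adjusted p = 0.00681), a call made for 1 of the 8 genes and for 11 of all genes (0.155%). The effect at 8 h exceeded that at 4 h by 1.35 ± 0.19 (adjusted p = 0.0069) and that at 2 h by 0.90 ± 0.19 (adjusted p = 0.079). With each array centred on its median the F test gave an adjusted p of 0.0687. Plxna2 has 1 probe set on the array, so no second one could be compared.

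Plxnb2, plexin B2, a receptor for class 4 semaphorins, and Plxnd1, plexin D1, an endothelial receptor needed for vessel patterning in mice, did not pass in any comparison of aldosterone with vehicle. Plxnb2 at 4 h read 5.96, 6.57 and 5.91 with aldosterone and 5.83, 5.33 and 5.64 with vehicle. These groups did not overlap, yet the difference of 0.55 ± 0.31 had an adjusted p of 1. At 8 h the means of Plxnb2 were 6.92 ± 0.19 with aldosterone and 6.92 ± 0.40 with vehicle (SD, n = 3 each). Plxnd1 stayed within a log2 difference of -0.17 to 0.00 at the 3 times, with groups that overlapped each time. For Plxnd1 at 8 h the 95% interval of the difference ran from -0.57 to 0.23. Plxnc1, the receptor of Sema7a, was below the filter in all 4 of its probe sets, the highest single value being 3.54.

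Among the cues, Sema5a encodes a transmembrane semaphorin with thrombospondin repeats that can attract or repel axons. At 2 h its log2 values were 5.85, 6.24 and 5.76 with aldosterone and 6.30, 5.88 and 5.96 with vehicle. Those at 4 h were 4.98, 5.37 and 5.16 with aldosterone and 5.50, 5.86 and 5.54 with vehicle. After 8 h they were 5.52, 5.38 and 5.28 with aldosterone and 6.17, 6.21 and 6.13 with vehicle. The groups overlapped at 2 h, and all aldosterone samples lay below all vehicle samples at 4 h and at 8 h. Ordered by mean, the 6 groups were vehicle at 8 h (6.17), vehicle at 2 h (6.05), aldosterone at 2 h (5.95), vehicle at 4 h (5.63), aldosterone at 8 h (5.39) and aldosterone at 4 h (5.17), and the samples of each neighbouring pair overlapped.

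The Sema5a difference at 8 h was -0.78 ± 0.17 on the log2 scale (SE, n = 3 each, adjusted p = 0.0335). The difference was -0.46 ± 0.17 at 4 h (adjusted p = 1), -0.10 ± 0.17 at 2 h (adjusted p = 0.87) and -0.45 ± 0.10 averaged over times (adjusted p = 0.0336). The call averaged over times was lost in 12 of 27 alternative settings, 10 of them with a single sample left out, and the adjusted p reached up to 0.13. Its adjusted p at 8 h was above 0.05 when any 1 of the 6 samples of 8 h was left out, and the difference then ran from -0.84 to -0.72. The effect was not shown to differ between times (adjusted p = 0.797 for the F test). A second Sema5a probe set was dim, with 3 of 18 samples above 4. At 8 h it read 3.63, 4.05 and 3.42 with aldosterone and 3.76, 4.55 and 4.71 with vehicle, which overlap. Its difference there was -0.64 ± 0.21. It passed the filter through samples of 8 h alone, so no p is given for it.

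**Figure D2:**
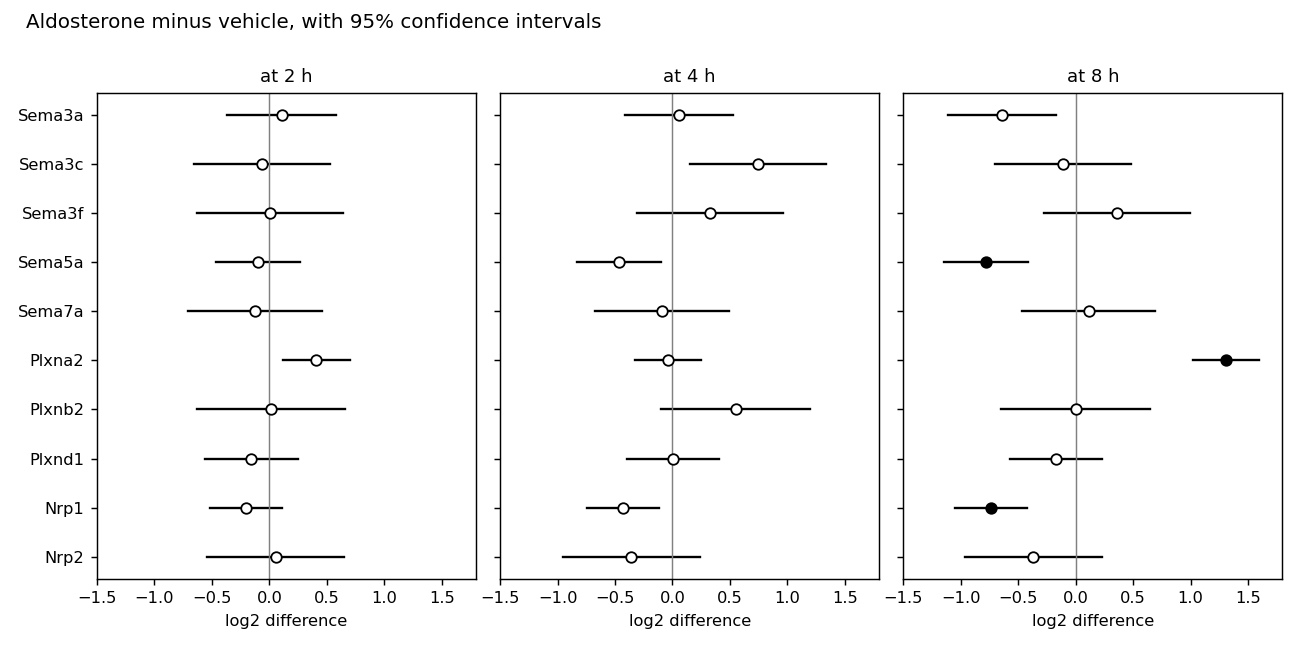
Log2 difference, aldosterone minus vehicle, at 2 h, 4 h and 8 h for 8 semaphorin and plexin genes and both neuropilins; points are limma estimates from 3 samples a group, lines are 95% confidence intervals and filled points have an adjusted p under 0.05. At 8 h the filled points are Plxna2 at 1.31, Sema5a at -0.78 and Nrp1 at -0.74.

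Sema3a, a secreted cue that collapses growth cones and repels sympathetic axons, was dim at 8 h. Its log2 values there were 3.44, 3.30 and 3.29 with aldosterone and 3.74, 4.30 and 3.92 with vehicle. The groups did not overlap, but every aldosterone sample and 2 of 3 vehicle samples lay below 4, as did both group means, so no fold is given, and the adjusted p was 0.39. At 2 h and at 4 h its groups overlapped, with log2 differences of 0.11 ± 0.22 and 0.06 ± 0.22. Its other 2 probe sets were below the filter.

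Sema3c, a secreted cue that attracts cardiac neural crest into the outflow tract of mouse embryos, read 6.51, 6.31 and 6.52 with aldosterone and 5.45, 6.30 and 5.37 with vehicle at 4 h. The lowest aldosterone sample was barely above the highest vehicle sample, and the difference of 0.74 ± 0.28 had an adjusted p of 1. At 8 h its aldosterone samples, 5.77 to 5.88, lay inside the vehicle range of 5.47 to 6.50. Sema3f, a ligand of neuropilin 2 that repels endothelial cells, differed by 0.01 at 2 h, 0.33 at 4 h and 0.36 at 8 h, with an SE of 0.30 each time and overlapping groups. Sema7a, which is held in the membrane by a lipid anchor and binds Plxnc1 and integrin beta 1, differed by -0.12, -0.09 and 0.11 at 2 h, 4 h and 8 h with an SE of 0.28. Sema6a, the transmembrane ligand of plexin A2, was below the filter in both of its probe sets, with no value above 3.03.

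Groups that did not overlap were counted against the rate over all genes. At 2 h this held for 1 of the 8 genes (Plxna2), and for 987 of 7093 genes (13.9%). It was 3 of 8 (Plxnb2, Sema3c and Sema5a) and 749 of all genes (10.6%) at 4 h, and 3 of 8 (Plxna2, Sema3a and Sema5a) and 1026 of all genes (14.5%) at 8 h.

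Neuropilin 1 (Nrp1), the co-receptor of class 3 semaphorins that also binds vascular endothelial growth factor, was lower with aldosterone at 8 h in all 3 of its probe sets. The brightest read 10.34, 10.13 and 10.12 with aldosterone and 10.54, 10.56 and 10.10 with vehicle at 2 h. At 4 h it read 9.74, 9.48 and 9.50 with aldosterone and 10.03, 10.01 and 9.98 with vehicle. At 8 h it read 9.75, 9.42 and 9.15 with aldosterone and 10.06, 10.29 and 10.19 with vehicle. Aldosterone samples were below all vehicle samples at 4 h and at 8 h, and the groups overlapped at 2 h.

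The Nrp1 difference at 8 h was -0.74 ± 0.15 (adjusted p = 0.0153), and averaged over times it was -0.46 ± 0.09 (adjusted p = 0.00866). Averaged over times the second brightest probe set passed too (-0.50 ± 0.10, adjusted p = 0.0125 over all probe sets), whereas the third did not (-0.35 ± 0.10, adjusted p = 0.155 over all probe sets). The other 2 Nrp1 probe sets differed at 8 h by -0.77 ± 0.17 for the second brightest (adjusted p = 0.0348 over all probe sets) and by -0.84 ± 0.18 for the third (adjusted p = 0.0216 over all probe sets). In the brightest set the call at 8 h was lost when vehicle replicate 2 or 3 or aldosterone replicate 2 or 3 of that time was left out, and with only the 8 h samples in the fit. The adjusted p then reached up to 0.115. Neuropilin 2 (Nrp2), measured by 1 probe set past the filter, differed by 0.06, -0.36 and -0.37 at 2 h, 4 h and 8 h with an SE of 0.28, and all 3 pairs of groups overlapped.

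**Figure D3:**
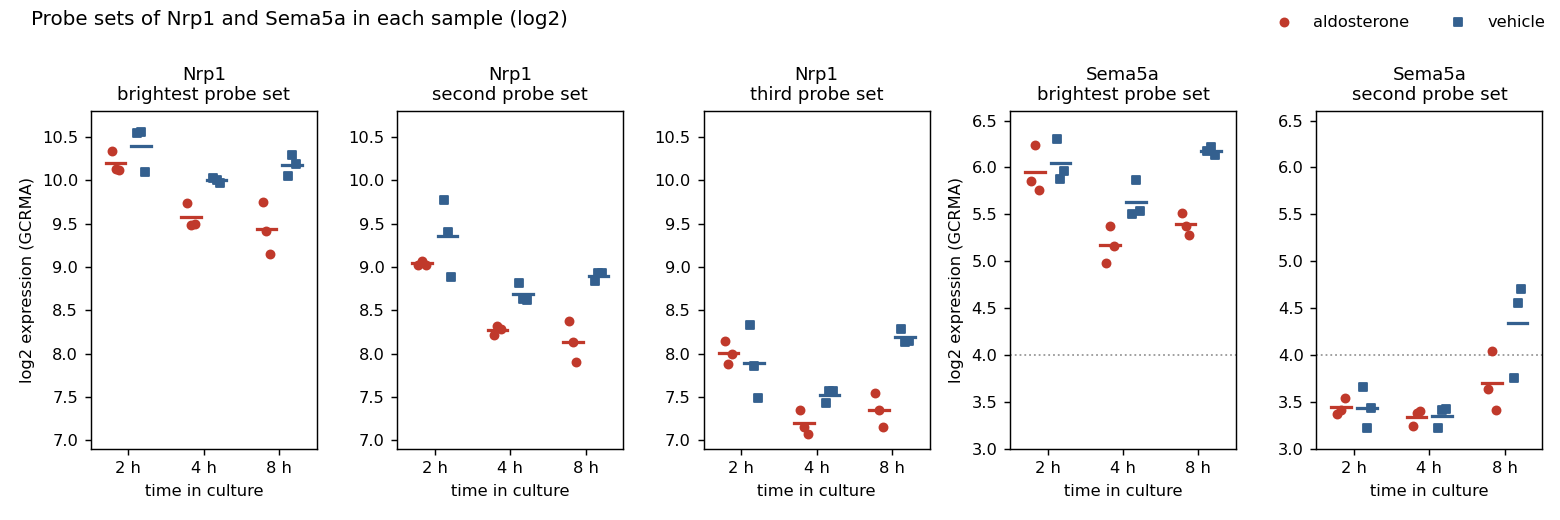
Log2 expression of 3 probe sets of Nrp1 and 2 of Sema5a in each sample by time in culture, with aldosterone as red circles left of vehicle as blue squares and short lines at group means; the dotted line is the filter level of 4. At 8 h every Nrp1 probe set has its aldosterone samples below its vehicle samples, whereas the second, dim Sema5a probe set overlaps.

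None of the cell type lists moved with Plxna2, Sema5a and Nrp1 at 8 h by more than 1 gene past the threshold. The count was 0 of 8 smooth muscle, 0 of 7 endothelial, 0 of 6 fibroblast, 0 of 5 adipocyte and 1 of 8 macrophage markers (Mrc1, higher), and 0 of 1 in the lymphocyte and nerve lists, while at an unadjusted p under 0.05 there were 1 smooth muscle, 2 adipocyte and 1 macrophage marker and none in the other lists. Of all 7093 genes, 71 passed in this comparison (1.0%) and 444 had an unadjusted p under 0.05. At such a rate any list of this size holds few calls, and cell makeup itself was not tested. Over all listed markers with a probe set, the log2 of the summed level of smooth muscle markers was 15.20 to 15.45 with aldosterone and 15.31 to 15.59 with vehicle at 8 h. For endothelial markers it was 9.48 to 10.18 with aldosterone and 9.65 to 9.81 with vehicle, and for fibroblast markers 13.81 to 14.03 with aldosterone and 13.56 to 14.06 with vehicle. The macrophage sum was 9.79 to 9.99 with aldosterone and 9.49 to 10.18 with vehicle. Those ranges overlap. The adipocyte sum did not overlap, at 13.91 to 14.17 with aldosterone and 13.49 to 13.63 with vehicle, and its part in the results at 8 h was not tested. Sums were taken on the linear scale, so the brightest genes of a list lead them. The adipocyte sum rests mostly on Fabp4, with a mean log2 value of 13.76 against 9.89 for Adipoq, the next. A sign of RNA quality, the log2 signal of the Gapdh control probe set at the 3′ end minus that at the 5′ end, was 0.45 to 0.49 with aldosterone and 0.355 to 0.53 with vehicle at 8 h, which overlap.

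More of these genes passed between times in culture than between treatments, as did more genes in general. With aldosterone, 3 of 8 passed at 4 h against 2 h, beside 2737 of all genes (38.6%), and 5 of 8 at 8 h against 2 h, beside 4004 (56.5%). With vehicle, 5 of 8 passed at 4 h against 2 h, beside 2853 (40.2%), and 4 of 8 at 8 h against 2 h, beside 4150 (58.5%). Without vehicle 2 h replicate 1 the numbers were 4 of 8 (48.1% of all genes) at 4 h and 5 of 8 (63.6%) at 8 h with aldosterone, and 5 of 8 (39.8%) at 4 h and 3 of 8 (61.0%) at 8 h with vehicle. Within an arm both comparisons share the 2 h samples. The median over all genes was -0.13 on the log2 scale for vehicle at 4 h against 2 h and -0.02 without vehicle 2 h replicate 1, and changes of that comparison are to be read against that shift.

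Sema7a was higher later in culture in both arms. Its values with aldosterone were 6.35, 5.83 and 6.61 at 2 h, 7.41, 7.45 and 7.35 at 4 h and 7.19, 6.82 and 7.46 at 8 h. With vehicle they were 7.13, 6.24 and 5.79 at 2 h, 7.23, 7.77 and 7.50 at 4 h and 7.28, 6.94 and 6.92 at 8 h. All 4 h and 8 h samples with aldosterone lay above all those of 2 h, while with vehicle the high sample of 2 h, replicate 1, overlapped with 8 h. The change at 4 h was 1.14 ± 0.28 with aldosterone (adjusted p = 0.00375) and 1.11 ± 0.28 with vehicle (adjusted p = 0.00423).

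At 8 h Sema7a had changed by 0.90 ± 0.28 with aldosterone (adjusted p = 0.0103) and by 0.66 ± 0.28 with vehicle (adjusted p = 0.0489). Without vehicle 2 h replicate 1, the vehicle value was 1.03 (adjusted p = 0.000949). Leaving out vehicle 2 h replicate 3 gave 0.36 instead. The adjusted p of that vehicle change was above 0.05 in 18 of 27 alternative settings. The change with aldosterone was lost without aldosterone 2 h replicate 2 and without aldosterone 8 h replicate 3. A second Sema7a probe set was below the filter in every sample, at 2.45 to 2.58.

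Plxna2 was also higher later in culture in both arms. With vehicle it was higher by 0.74 ± 0.14 at 4 h (adjusted p = 0.000469) and by 0.43 ± 0.14 at 8 h (adjusted p = 0.0127), each against 2 h. With aldosterone the change was 0.28 ± 0.14 at 4 h (adjusted p = 0.112) and 1.33 ± 0.14 at 8 h (adjusted p = 2.89e-07). The vehicle values peaked at 4 h and the aldosterone values at 8 h.

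Sema3a was lower later in culture in both arms. Its values with aldosterone were 5.48, 4.80 and 5.02 at 2 h, 4.04, 3.77 and 4.42 at 4 h and 3.44, 3.30 and 3.29 at 8 h. With vehicle they were 4.75, 4.81 and 5.42 at 2 h, 4.21, 3.91 and 3.93 at 4 h and 3.74, 4.30 and 3.92 at 8 h. No later sample reached the lowest sample of 2 h in its arm. The change at 4 h was -1.02 ± 0.22 with aldosterone (adjusted p = 0.00185) and -0.97 ± 0.22 with vehicle (adjusted p = 0.00251). At 8 h Sema3a was at least 2.14-fold lower with aldosterone (adjusted p = 3.59e-06), every 8 h sample being under 4, and changed by -1.01 ± 0.22 on the log2 scale with vehicle (adjusted p = 0.000944). With 2 of 3 vehicle samples of 8 h under 4, no fold is given for vehicle.

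Sema5a fell with aldosterone, with log2 changes of -0.78 ± 0.17 at 4 h (adjusted p = 0.00195) and -0.56 ± 0.17 at 8 h (adjusted p = 0.0105), each against 2 h. With vehicle it changed by -0.42 ± 0.17 at 4 h (adjusted p = 0.0643) and by 0.13 ± 0.17 at 8 h (adjusted p = 0.552). The hormone's effect at 8 h minus that at 2 h was -0.69 ± 0.25 with an adjusted p of 0.433, so a difference between the arms' courses did not pass. The change with aldosterone at 8 h was lost without aldosterone 2 h replicate 2 (-0.41). With the mean of both Sema5a probe sets it was -0.15, and the change with vehicle at 8 h was 0.51. That mean takes in a dim probe set that passed the filter through 8 h alone, so no p is given for it. The dim Sema5a probe set was higher at 8 h than at 2 h in both arms, by 0.26 with aldosterone and 0.90 with vehicle. It exceeded 4 at 8 h only, so the filter bears on these values and no p is given for them.

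Sema3c passed in one comparison between times in each arm and Sema3f in one with vehicle. Sema3c changed by -0.72 ± 0.28 at 8 h with aldosterone (adjusted p = 0.038) and by -0.89 ± 0.28 at 4 h with vehicle (adjusted p = 0.018). The change of Sema3c with aldosterone was lost when any 1 of the 6 samples compared was left out, with values from -0.78 to -0.62. The change of Sema3c with vehicle at 4 h was -0.59 without vehicle 2 h replicate 1 (adjusted p = 0.09), and it was lost too without vehicle 4 h replicate 1 or 3. At 8 h with vehicle, Sema3c changed by -0.67 ± 0.28 (adjusted p = 0.0504), and this passed in 11 of 27 alternative settings. Sema3f changed by -0.84 ± 0.30 with vehicle at 8 h (adjusted p = 0.0244) and by -0.41 without vehicle 2 h replicate 1 (adjusted p = 0.157), and it was lost too with array weights and without vehicle 8 h replicate 3. A second, dimmer Sema3f probe set passed with vehicle at both times, with -0.50 ± 0.19 at 4 h (adjusted p = 0.0467 over all probe sets) and -0.62 ± 0.19 at 8 h (adjusted p = 0.0104 over all probe sets). It read 5.071, 4.465 and 4.125 with vehicle at 2 h, replicate 1 being the highest. Its vehicle samples of 4 h and 8 h ran from 3.714 to 4.128, near the filter level. That dimmer set was not refitted without vehicle 2 h replicate 1, so it is no separate support for a fall. The brighter Sema3f set changed by -0.50 ± 0.30 with vehicle at 4 h (adjusted p = 0.198).

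The mean of Plxnb2 was lowest at 4 h in both arms. Its values with aldosterone were 6.86, 6.44 and 7.03 at 2 h, 5.96, 6.57 and 5.91 at 4 h and 6.70, 7.04 and 7.03 at 8 h. Those with vehicle were 7.59, 6.58 and 6.12 at 2 h, 5.83, 5.33 and 5.64 at 4 h and 7.23, 7.06 and 6.47 at 8 h. The change at 4 h was -0.63 ± 0.31 with aldosterone (adjusted p = 0.118) and -1.16 ± 0.31 with vehicle (adjusted p = 0.0065). Without vehicle 2 h replicate 1, both passed, at -0.63 with aldosterone (adjusted p = 0.0338) and -0.75 with vehicle (adjusted p = 0.0293). Plxnd1 changed by -0.32 ± 0.19 with aldosterone and -0.48 ± 0.19 with vehicle at 4 h, and neither passed (adjusted p = 0.209 with aldosterone and 0.055 with vehicle). Without vehicle 2 h replicate 1 the vehicle change of Plxnd1 was -0.55 (adjusted p = 0.0415).

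**Figure D4:**
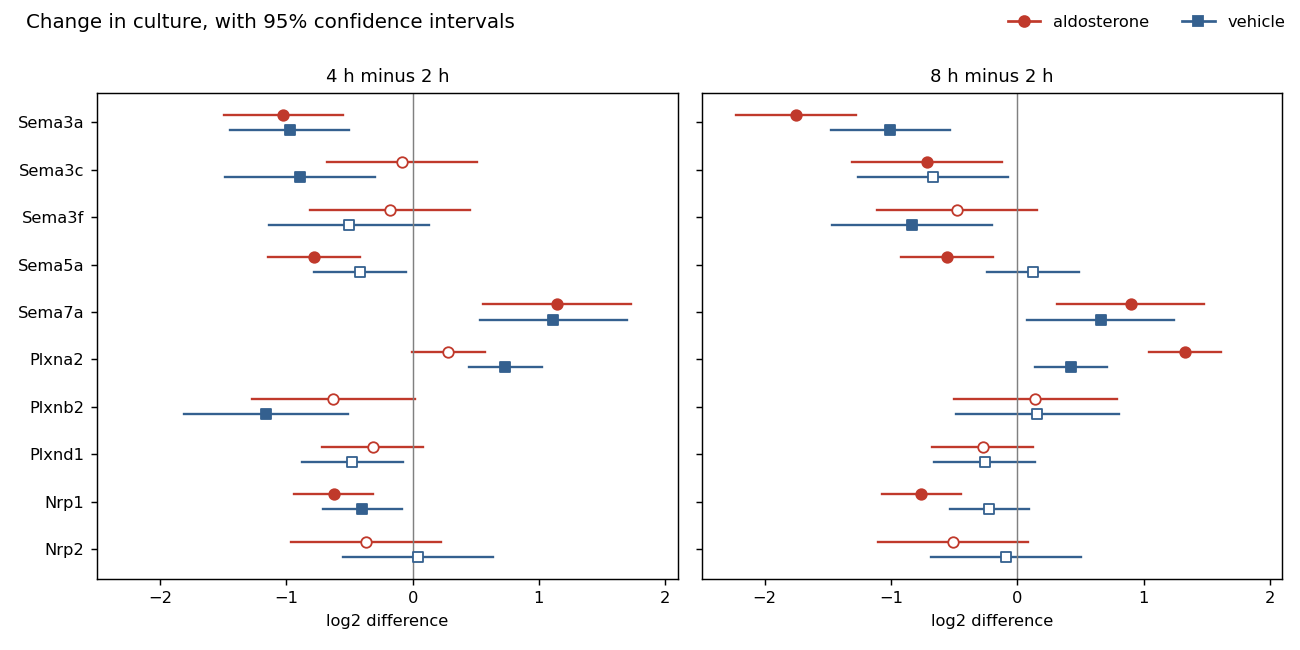
Log2 change at 4 h and at 8 h against 2 h for 8 semaphorin and plexin genes and both neuropilins, with aldosterone as red circles above vehicle as blue squares; lines are 95% confidence intervals and filled points have an adjusted p under 0.05 in limma. Sema3a lies below 0 and Sema7a above 0 in both arms at both times.

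The cell type lists moved with time as well. With aldosterone at 8 h against 2 h, 7 of 8 smooth muscle, 6 of 6 fibroblast, 5 of 7 endothelial, 6 of 8 macrophage and 4 of 5 adipocyte markers were lower, and 1 endothelial (Cdh5) and 1 macrophage marker were higher, where 27.3% of all genes were called lower. With vehicle, 6 of 8 smooth muscle, 5 of 6 fibroblast, 5 of 7 endothelial, 6 of 8 macrophage and 4 of 5 adipocyte markers were lower, and 1 smooth muscle and 1 macrophage marker were higher, where 31.9% of all genes were called lower. The log2 of the summed endothelial level was 9.48 to 10.18 at 8 h and 10.34 to 10.76 at 2 h with aldosterone, and 9.65 to 9.81 at 8 h and 10.43 to 11.35 at 2 h with vehicle. The Gapdh 3′ minus 5′ signal was also lower, at 0.45 to 0.49 at 8 h and 0.57 to 0.67 at 2 h with aldosterone, and at 0.355 to 0.53 at 8 h and 0.56 to 0.64 at 2 h with vehicle, while that of beta-actin overlapped in both arms. The part of cell makeup and RNA quality in the changes with time was not tested.

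The other semaphorins of the family were represented by 4 of 14 listed genes past the filter, Sema3b, Sema3e, Sema4a and Sema4b, and the other plexins by 0 of 5. None of the 4 passed in limma's test of aldosterone against vehicle, and at an unadjusted p under 0.05 there was 1 at 2 h, 0 at 4 h and 0 at 8 h. Without vehicle 2 h replicate 1 the unadjusted count at 2 h was 0. With time, 2 of 4 passed at 4 h in each arm, beside 38.6% of all genes with aldosterone and 40.2% with vehicle, and 3 of 4 at 8 h, beside 56.5% with aldosterone and 58.5% with vehicle. One of those at 8 h is Sema4b, whose entry rested on that time. Sema4a, a membrane cue best known from immune cells, read 5.63, 5.71 and 5.60 at 8 h and 7.42, 7.18 and 7.61 at 2 h with aldosterone. With vehicle it read 5.56, 5.80 and 5.79 at 8 h and 8.06, 7.89 and 7.52 at 2 h. These groups did not overlap in either arm, and the change was -1.76 ± 0.16 with aldosterone (adjusted p = 5.48e-08) and -2.11 ± 0.16 with vehicle (adjusted p = 5.51e-09). Sema3b, a secreted cue, fell under 4 in every 8 h sample and was at least 2.75-fold lower with aldosterone (adjusted p = 1.04e-07) and at least 2.56-fold lower with vehicle (adjusted p = 4.6e-07). Sema4b passed the filter through its 6 samples of 8 h alone, so a rise was built in by the filter and its values are a description with no test. It was under 4 in every sample of 2 h and 4 h, and at 8 h it was at least 1.43-fold higher with aldosterone and at least 1.67-fold higher with vehicle.

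Of 16 listed co-receptors and alternative receptors, 6 passed the filter, and Nrp1 was the only one past the threshold between aldosterone and vehicle. Against 2 h, 3 of 6 passed as lower at 4 h (21.3% of all genes) and 4 of 6 at 8 h (27.3%) with aldosterone, and 3 of 6 at 4 h (25.6%) and 2 of 6 at 8 h (31.9%) with vehicle. Without vehicle 2 h replicate 1 the numbers with vehicle were 1 at 4 h and 3 at 8 h. Beside them, 1399 of all 7093 genes were called lower at 4 h and 2030 at 8 h. Each of the first 4 counts includes Tyrobp, an adaptor of immune receptors, which passed the filter through its 6 samples of 2 h alone. The 3 at 8 h without vehicle 2 h replicate 1 include Tyrobp too. Kdr, the receptor of vascular endothelial growth factor that neuropilin 1 joins, is also in the endothelial marker list. Its log2 change at 8 h was -2.03 ± 0.32 with aldosterone (adjusted p = 3e-05) and -2.19 ± 0.32 with vehicle (adjusted p = 1.24e-05). For Tyrobp a fall against 2 h was thus built in, and its bounds at 8 h are a description with no test: at least 1.29-fold lower with aldosterone and at least 1.40-fold lower with vehicle, or 1.06-fold with vehicle without vehicle 2 h replicate 1. L1cam, an adhesion molecule that neuropilin 1 binds in cis, fell by 1.21 ± 0.25 at 8 h with aldosterone (adjusted p = 0.000565). With vehicle L1cam changed by -0.49 ± 0.25 (adjusted p = 0.107), and by -0.84 without vehicle 2 h replicate 1, which passed (adjusted p = 0.00207). The effect of aldosterone on L1cam at 8 h minus that at 2 h was -0.72 ± 0.36 and did not pass (adjusted p = 0.649). Nrp1 fell with aldosterone at both later times, with log2 changes of -0.63 ± 0.15 at 4 h (adjusted p = 0.00331) and -0.76 ± 0.15 at 8 h (adjusted p = 0.000303). With vehicle it fell by 0.40 ± 0.15 at 4 h (adjusted p = 0.0407), a call that was lost in 11 of 27 alternative settings, and changed by -0.22 ± 0.15 at 8 h (adjusted p = 0.207). The vehicle 4 h call was lost without vehicle 2 h replicate 1 (-0.33, adjusted p = 0.104). The 3 Nrp1 probe sets disagreed on the vehicle change at 8 h: the second brightest fell by 0.45 ± 0.17 (adjusted p = 0.0312 over all probe sets) and the third changed by 0.30 ± 0.17 (adjusted p = 0.155 over all probe sets). With vehicle the second brightest read 9.769, 9.408 and 8.886 at 2 h and 8.838, 8.932 and 8.935 at 8 h, which overlap. Replicate 1 was the highest vehicle sample of 2 h in both of these sets, and neither was refitted without it.

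The intracellular effectors were represented by 15 of 32 listed genes. In limma's test none passed between aldosterone and vehicle at any time or in their average, and at an unadjusted p under 0.05 there were 2 at 2 h, 2 at 4 h and 1 at 8 h. The median difference over the 15 genes at 8 h was -0.05, beside 0.01 over all genes. Against 2 h, 6 of 15 passed at 4 h (3 higher, 3 lower) and 9 at 8 h (4 higher, 5 lower) with aldosterone, beside 38.6% and 56.5% of all genes. With vehicle 7 passed at 4 h (2 higher, 5 lower) and 8 at 8 h (4 higher, 4 lower), beside 40.2% and 58.5% of all genes. These counts are near the rate over all genes. Without vehicle 2 h replicate 1 the vehicle counts were 6 at 4 h and 7 at 8 h, beside 39.8% and 61.0% of all genes. Rac1, which drives protrusion of the cell edge, rose at 8 h by 1.08 ± 0.10 with aldosterone (adjusted p = 7.91e-08) and by 1.08 ± 0.10 with vehicle (adjusted p = 7.47e-08). Rock1, a kinase that drives contraction, fell at 8 h, with log2 changes of -1.49 ± 0.16 with aldosterone (adjusted p = 3.84e-07) and -1.68 ± 0.16 with vehicle (adjusted p = 8.56e-08). Mical2, an enzyme that oxidises actin, rose at 4 h by 1.60 ± 0.24 with aldosterone (adjusted p = 8.3e-05) and by 1.29 ± 0.24 with vehicle (adjusted p = 0.000508). Rras, a small GTPase that plexins switch off, fell at 8 h, with log2 changes of -1.16 ± 0.18 with aldosterone (adjusted p = 2.53e-05) and -1.09 ± 0.18 with vehicle (adjusted p = 4.37e-05). Arhgef12, the guanine nucleotide exchange factor bound by B-type plexins, fell at 8 h, with log2 changes of -0.77 ± 0.15 with aldosterone (adjusted p = 0.000244) and -0.91 ± 0.15 with vehicle (adjusted p = 4.57e-05). The probe sets of Dpysl3, a collapsin response mediator protein, disagreed. Its brightest set fell at 8 h by 0.75 ± 0.16 with aldosterone (adjusted p = 0.000768) and by 0.41 ± 0.16 with vehicle (adjusted p = 0.0402), the vehicle call being lost without vehicle 2 h replicate 1 (-0.21, adjusted p = 0.207). A second Dpysl3 set changed by -0.73 ± 0.22 with aldosterone (adjusted p = 0.00811 over all probe sets) and by -0.45 ± 0.22 with vehicle (adjusted p = 0.0845 over all probe sets). The third was under 4 in every sample of 2 h and 4 h and higher at 8 h, with means of 5.25 with aldosterone and 5.22 with vehicle at that time. It passed the filter through 8 h alone, so no test is given for it.

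**Figure D5:**
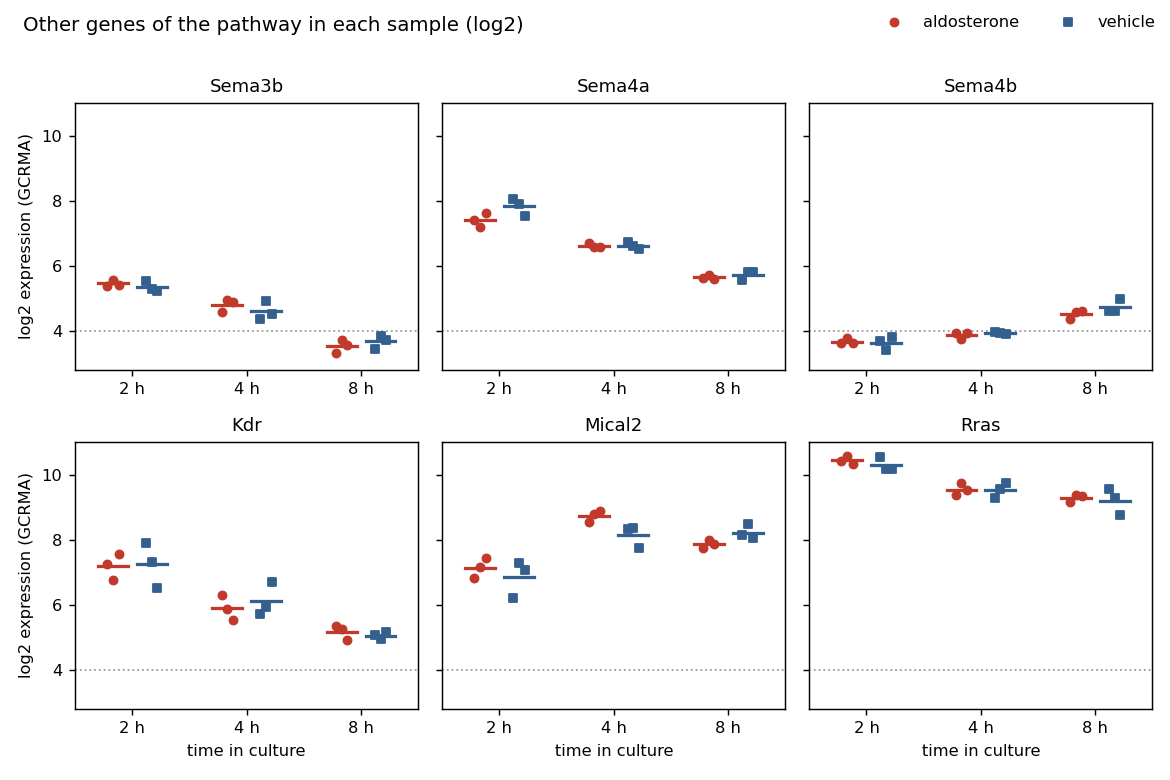
Log2 expression of 6 other genes of the pathway in each sample by time in culture, with aldosterone as red circles left of vehicle as blue squares and short lines at group means; the dotted line is the filter level of 4. Sema3b, Sema4a, Kdr and Rras are lower and Sema4b and Mical2 higher at 8 h than at 2 h in both arms.

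For each measured gene, the 2 tested genes of closest profile over the 18 samples were found by Pearson's r, as a description in which all points share time and treatment. For Plxna2 they were Lcn2 (0.862), a secreted iron-binding protein, and Mt4 (0.852), a metallothionein. Lcn2 ran from 3.12 to 6.13 and Mt4 from 2.87 to 6.73, so both had values under the filter level of 4. Sema5a was closest to Cxcl12 (0.833), a chemokine, and Tagln2 (0.832). Sema3a was closest to Scn2a (0.922) and Agrn (0.908), Sema3c to Enpep (0.867) and Ginm1 (0.863), and Sema3f to Pld3 (0.935) and Uqcrh (0.916). Scn2a too had values under 4, running from 3.83 to 5.72. Sema7a was closest to Ppp2r2a (0.931) and Atp6v1h (0.925), Plxnb2 to Snx6 (0.914) and Pmpcb (0.906), and Plxnd1 to Srgap2 (0.776) and Rgs3 (0.769).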

How the data were processed

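Total RNA of 18 pools of mouse aorta was hybridised to 1-colour Affymetrix arrays. The deposited values are on a log2 scale and were made by the authors with GCRMA, per the submitters' processing notes; no version or setting is given in the sources used here. The raw scans were not analysed here. The table held 22690 probe sets, of which 20393 had 1 gene symbol in the platform annotation, 691 had several and 1606 had none; 20364 matched a RefSeq gene, and probe sets with several or no gene were left out.

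Probe sets above 4 in at least 3 samples were kept (11244), and the one with the highest mean stood for its gene (7093 genes). Group means of all 6 groups were fitted with limma 3.58.1 (lmFit, eBayes with an intensity trend) in R 4.3.3, with 12 residual degrees of freedom and a median residual SD of 0.24 on the log2 scale, and p-values were adjusted over all genes by the Benjamini-Hochberg method. The fit was tested on simulated data. Where every sample of one group lay at or below 4, a fold is given as "at least", from the other group's mean over 4. The 10 genes, the lists of the pathway and the markers were chosen with earlier results of these data known. Named genes are the 10 genes, Nrp1 and Nrp2, examples among listed genes past the threshold, and the 2 genes of closest profile to each. The count of arrays limits the precision. Each p-value sets a difference against a spread between pools that is estimated over all 6 groups. The spread between single animals was not measured. Same-numbered samples deviated together with correlations of -0.19 to 0.28, so numbers were not taken to pair samples. Promoter sequences come from RefSeq (GRCm38.p6). Alternatives were the trend, the filter, the choice of probe set, a further normalization, array weights, the samples fitted, a replicate block and leaving out each sample.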

Additional observations from a re-analysis of the deposited data

Results flagged for a closer look

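The effect of aldosterone on Plxna2 differed between times in culture. Its log2 difference between aldosterone and vehicle was 0.41 at 2 h, -0.04 at 4 h and 1.31 at 8 h, with an SE of 0.14 each time (n = 3 each). The test of the difference itself, limma's moderated F test over the 3 times, gave an adjusted p of 0.00681. With each array centred on its median the same test gave 0.0687, so the call was lost. Higher values with aldosterone were seen in 3 of 3 samples at 2 h and at 8 h, where the groups did not overlap. Of all genes tested, 13.9% did not overlap at 2 h and 14.5% at 8 h. The Plxna2 difference at 2 h did not pass in limma's moderated test (adjusted p = 0.281). The vehicle level was highest at 4 h, which is also the time at which the groups overlapped. No cause was tested.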

How the results depend on the processing

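Over 30 alternative settings, 90 single-gene results of the 8 measured genes, Nrp1 and Nrp2 gave 2442 values, of which 2292 kept direction and side of the threshold, 71 lost the call, 29 gained it and 50 changed sign. For Plxna2 at 8 h the adjusted p ran from 7.16e-07 to 0.00232, and for Sema5a at 8 h from 0.0026 to 0.169; the cause was not tested. Sema3a at 8 h passed with array weights (adjusted p = 0.0422). The labels do not say whether replicate numbers pair the samples, and they were not taken to do so. With a replicate block, 67 genes passed at 8 h, and Plxna2 (adjusted p = 0.0001) and Sema5a (0.0408) did so; the vehicle changes at 8 h of Sema7a (0.0531) and Sema3c (0.046) crossed the threshold.

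Genes past the threshold at 2 h numbered 5, and 17 with no filter, 2 with a filter at 6, 10 with means of probe sets, 8 with all probe sets, 10 with quantile normalization, 10 with median centring, 53 with array weights, 0 with only the 2 h samples and 1 to 29 with a sample left out. At 4 h the 17 genes became 11 without the trend, 9 with no filter, 42 with array weights, 8 with only the 4 h samples and 5 to 32 with a sample left out. At 8 h 71 became 114 with all probe sets, 222 with array weights and 33 to 111 with a sample left out. For the mean of times 78 became 128 with all probe sets, 260 with array weights and 53 to 146 with a sample left out, and for the difference between times 11 became 17 and 29 under the same 2 settings. With all probe sets, 6332 passed for vehicle and 6151 for aldosterone at 8 h against 2 h, since more features were tested.

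Of the 8 genes, 2 passed at 8 h, 1 with no filter, and 1 to 2 with a sample left out. For the mean of times 2 passed, 1 with no filter or means of probe sets, and 1 to 2 with a sample left out. The difference between times had 1, and 0 with median centring. At 8 h against 2 h, 2 to 5 passed with aldosterone and 2 to 4 with vehicle with a sample left out.

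Signs turned at small differences. Plxnd1 at 4 h was -0.018 with quantile normalization and -0.032 with median centring; with array weights Sema3a at 2 h was -0.086, Sema3c at 2 h 0.22, Sema7a at 2 h 0.32 and over all times 0.12; Sema3c at 2 h was 0.001 with quantile normalization, Sema3f at 2 h -0.15 with means of probe sets, and Nrp2 for vehicle at 8 h against 2 h 0.101 with quantile normalization. With a sample left out, aldosterone minus vehicle ran from -0.151 to 0.054 for Plxna2 at 4 h, from -0.31 to 0.43 for Plxnb2 at 2 h and -0.23 to 0.16 at 8 h, from -0.18 to 0.14 for Plxnd1 at 4 h, from -0.085 to 0.318 for Sema3a at 2 h and -0.12 to 0.21 at 4 h, from -0.22 to 0.24 for Sema3c at 2 h and -0.34 to 0.17 at 8 h, from -0.28 to 0.44 for Sema3f at 2 h, from -0.24 to 0.031 for Sema5a at 2 h, from -0.069 to 0.164 for Nrp2 at 2 h, and for Sema7a from -0.42 to 0.25 at 2 h, -0.23 to 0.04 at 4 h, -0.039 to 0.28 at 8 h and -0.135 to 0.088 over all times. Against 2 h it ran from -0.16 to 0.57 for Plxnb2 with vehicle at 8 h, from -0.027 to 0.271 with aldosterone at 8 h, from -0.15 to 0.009 for Sema3c with aldosterone at 4 h, and for Nrp2 with vehicle from -0.11 to 0.15 at 4 h and -0.42 to 0.22 at 8 h. Signal near background limits Sema3a, the second probe sets of Sema3f and Sema5a, Sema3b, Sema4b and Nrp2. Among the genes of closest profile it limits Lcn2, Mt4 and Scn2a.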
